A study of Mus musculus with 16 samples.

Results

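Gata4, Gata6, Gata2, Zfpm1, Zfpm2, Wt1 and Cbx2 are 7 regulators of gonad formation, and their levels were followed in newborn mouse ovaries that lacked Runx1, Foxl2 or both. They were taken by name from the array's annotation, as 7 of 18193 genes measured, and 14 of 45101 probe sets matched 1 of them alone. For each gene the probe set with the highest mean level over the 16 arrays stood for it, and the other probe sets served as a check. None of the 7 genes passed the test in any of 6 comparisons between genotypes. The change nearest to the threshold was in Wt1, which was 1.28-fold higher in the DKO than in the control.

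GATA4 and GATA6 are zinc finger factors that bind DNA at short GATA sites and are needed for the somatic cells of the gonad to form and differentiate. FOG proteins, encoded by Zfpm1 and Zfpm2, do not act on DNA alone. They bind the amino-terminal zinc finger of GATA factors and turn them into activators or repressors. WT1 is a zinc finger factor of the gonadal ridge, the surface epithelium and the supporting cells, as well as of the kidney, and CBX2 is a chromodomain subunit of Polycomb repressive complex 1. Loss of Gata4, Zfpm2, Wt1 or Cbx2 disturbs testis formation in XY mice, and GATA4 with FOG2 is also needed in the ovary.

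RNA came from 16 single XX ovaries collected at birth, 4 for each of 4 genotypes, freed of the mesonephros and amplified before hybridisation. Control ovaries were Runx1+/f with Foxl2+/+ and carried no Cre. Runx1 KO ovaries held the Sf1-cre+/Tg transgene and were Runx1-/f with Foxl2+/+. Foxl2 KO ovaries had no Cre and were Runx1+/f with Foxl2-/-. DKO ovaries held the transgene, Sf1-cre+/Tg, and were Runx1-/f with Foxl2-/-. All 4 groups therefore held at least 1 floxed Runx1 allele, and loss of Runx1 came only together with the Cre transgene, so the effects of both cannot be told apart. The transgene is driven by regulatory sequence of Nr5a1 and deletes in SF1-positive somatic cells, while Foxl2 was null in the whole animal. In the Runx1 KO and the DKO the other Runx1 allele was an inherited null, so all their cells, blood cells included, lacked a Runx1 allele. Both deleted genes encode factors of the supporting lineage of the fetal ovary, the pre-granulosa cells. Each array was a different ovary. The methods describe the controls as littermates of the knockouts from 1 cross, but the labels do not tie single ovaries to a litter, so litter was not in the fit and p-values measure the spread between these ovaries.

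Of the whole arrays, 2 facts bear on the values. Foxl2 read 5.16-fold lower in the DKO than in the control (adjusted p = 5.55e-06), whereas Runx1 was 1.56-fold lower in the Runx1 KO (adjusted p = 0.398) and was not lower in the ovaries labelled DKO, where its log2 difference was -0.01 ± 0.19 (SE). The Runx1 KO and the DKO had the same Runx1 genotype and were read on the same probe set. Runx1 was nevertheless 0.64 ± 0.19 higher in the DKO than in the Runx1 KO (adjusted p = 0.176). Whether the Runx1 probe set lies in the deleted part is not given in the sources used here. The Runx1 genotype of the DKO was therefore not borne out on the chosen Runx1 probe set. Other Runx1 probe sets are not reported here, and the cause was not tested. Within the Runx1 KO the check was weak as well, since Runx1 read 1701, 1221, 932 and 2127 there against 2142 to 2359 in the control, with replicate 4 close to the control range. Control replicate 4 stood apart, with a summed intensity of 24389 over 9 erythroid genes against 568 to 909 in the other 15 arrays, and results that rest on it are given with and without it. The tissue was checked by defining markers, and over the 16 arrays the oocyte genes Ddx4 and Dazl had mean log2 levels of 10.6 and 11.7, the surface epithelium gene Upk3b 11.2 and the stroma gene Nr2f2 11.98. The Sertoli hormone gene Amh read 5.03, within the range of Y-linked probe sets given further on.

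The RefSeq promoter table used here (GRCm38.p6) held entries for Gata2 and Zfpm1, the members known best from blood cells. The 250 bases before the start site are shown for the first of 2 Gata2 start sites and for Zfpm1, because RUNX1 and FOXL2 act on DNA and the levels of these genes are described in their absence. The Gata2 window is chr6:88193641-88193890 and the Zfpm1 window is chr8:122281891-122282140, both on the plus strand, and no base is in capitals since no motif searched was found.
Gata2: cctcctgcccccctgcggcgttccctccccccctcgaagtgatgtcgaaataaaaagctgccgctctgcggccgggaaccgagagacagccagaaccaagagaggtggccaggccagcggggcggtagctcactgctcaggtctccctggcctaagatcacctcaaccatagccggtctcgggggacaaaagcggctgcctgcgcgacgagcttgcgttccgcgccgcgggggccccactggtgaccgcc
Zfpm1: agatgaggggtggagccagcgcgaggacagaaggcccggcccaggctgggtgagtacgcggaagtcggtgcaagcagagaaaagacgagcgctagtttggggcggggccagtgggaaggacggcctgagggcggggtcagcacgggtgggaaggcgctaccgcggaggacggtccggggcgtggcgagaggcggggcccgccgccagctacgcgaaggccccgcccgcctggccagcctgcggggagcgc
The letters TGTGGT or TGCGGT for RUNX, GTAAACA for forkhead factors, and AGATAA as well as TGATAA for GATA factors, were searched on both strands from 250 bases before to 50 bases after the start. None was found in these windows or in that of the second Gata2 start, while 22.4%, 3.65% and 18.6% of all 32851 promoter windows of that length held a RUNX, forkhead or GATA match. This says only that these letters are not in these windows. Gata4, Gata6, Zfpm2, Wt1 and Cbx2 were not searched.

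Values below are deposited intensities on a linear scale, and differences are on the scale of log2 of the intensity plus 16, with the moderated standard error of a limma fit to all 16 arrays. The adjusted p is the Benjamini-Hochberg value over all 18193 genes, and genes under 0.05 count as called. Because whole ovaries were used, fewer cells of a type and less RNA per cell cannot be told apart.

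**Figure D1:**
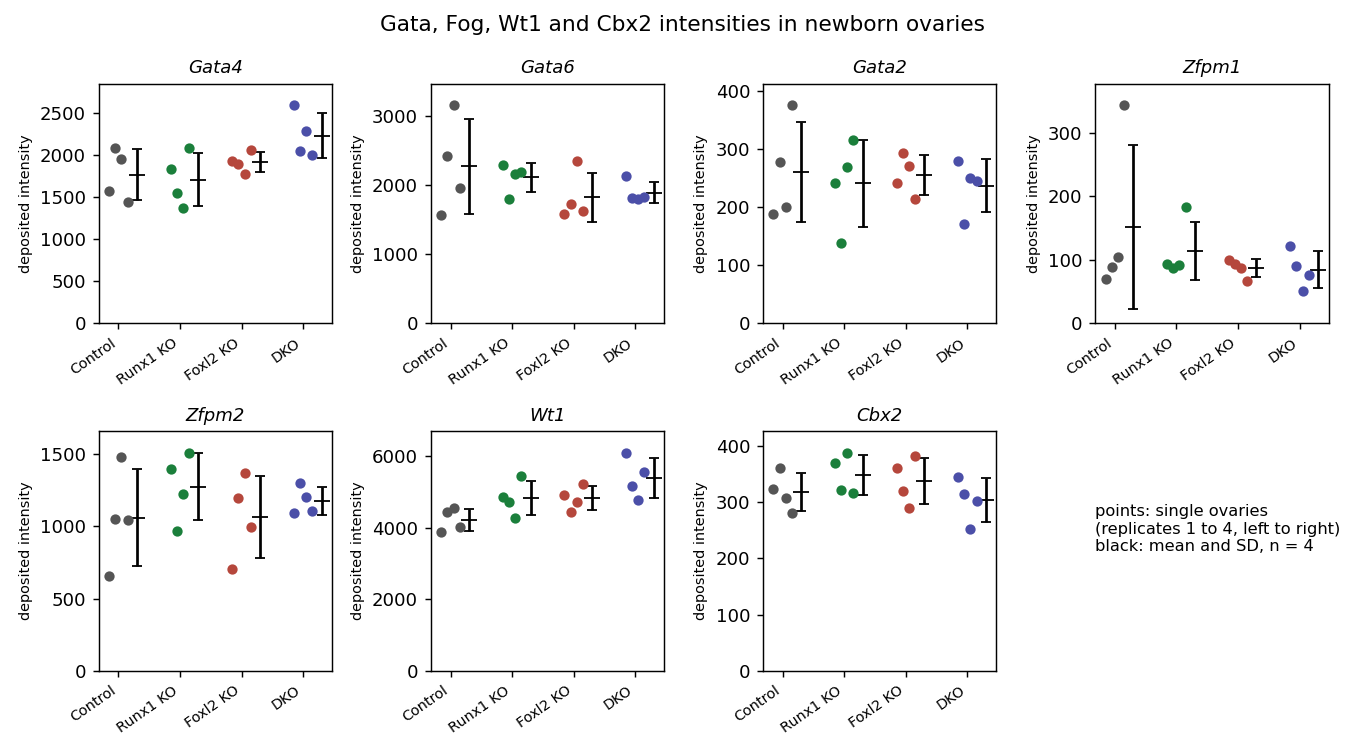
Deposited intensity (linear axis from 0) of the 7 regulators in control, Runx1 KO, Foxl2 KO and DKO ovaries. Each point is 1 ovary, and the black bar is the mean with its SD (n = 4). The 4 DKO values of Wt1 lie above the 4 control values, and Zfpm1 has 1 control ovary at 344.

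Among the GATA factors, Gata4 had its highest mean in the DKO. The control ovaries read 1571, 2083, 1957 and 1443, with a mean of 1764 ± 305 (SD, n = 4). The Runx1 KO ovaries read 1827, 1552, 1371 and 2078, and the Foxl2 KO ovaries 1932, 1889, 1774 and 2056. These 3 groups overlapped fully. The DKO ovaries read 2588, 2040.4, 2280 and 2004, so that 2 of them lay above every ovary of the other groups and 2 lay among them. Against the control the DKO difference in Gata4 was 0.34 ± 0.15 (SE), or 1.27-fold, with a 95% interval of 1.01 to 1.59-fold. Its unadjusted p was 0.0408 and its adjusted p 0.374, so it was not called. Against the Runx1 KO, the group that also carried Cre, the difference was 0.39 ± 0.15 (adjusted p = 0.405), and against the Foxl2 KO it was 0.21 ± 0.15 (adjusted p = 0.999). In the single knockouts Gata4 differed from the control by -0.05 ± 0.15 and 0.13 ± 0.15. A second Gata4 probe set followed the first across the arrays (Pearson r = 0.812, n = 16) and gave a smaller DKO difference of 0.19 ± 0.24.

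Gata6, the close relative of Gata4, had its highest mean in the control and its lowest in the Foxl2 KO. The control ovaries ranged widely, at 1560.45, 2418, 3157 and 1955. The Foxl2 KO ovaries read 1577, 1730.1, 2349 and 1630.3, the Runx1 KO ovaries 2298, 1803, 2164 and 2189, and the DKO ovaries 2126, 1821, 1796 and 1831. All groups overlapped with the control. The differences from the control were -0.06 ± 0.19 in the Runx1 KO, -0.29 ± 0.19 in the Foxl2 KO and -0.22 ± 0.19 in the DKO, with adjusted p values of 0.963, 0.649 and 0.709. The 95% interval for the Foxl2 KO ran from 0.62 to 1.08 times the control. Of the other probe sets, 1 followed the chosen one (r = 0.795) and gave -0.24 ± 0.18 and -0.28 ± 0.18 for the Foxl2 KO and the DKO, while a dimmer one did not follow it (r = 0.113).

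Gata2, which is best known from blood stem cells, mast cells and megakaryocytes, differed little between genotypes. The control ovaries read 188, 278, 200.3 and 375, the Runx1 KO ovaries 241, 138, 269 and 315, the Foxl2 KO ovaries 242, 293, 272 and 213, and the DKO ovaries 279, 171, 250.4 and 246. The spread within the control and within the Runx1 KO was larger than any difference between group means, which lay between 237 and 260.4. The Gata2 differences from the control were -0.11 ± 0.24, 0.01 ± 0.24 and -0.10 ± 0.24 for the Runx1 KO, the Foxl2 KO and the DKO. On a second probe set (r = 0.654 with the first) the Gata2 difference of the DKO from the control had the other sign, 0.38 ± 0.23 (adjusted p = 0.599), so no direction can be given for it.

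The FOG cofactors were measured with unequal precision. Zfpm2 encodes FOG2, the partner of GATA4 in the heart and the gonad. Its control ovaries read 660.0, 1052, 1483 and 1044. The Runx1 KO ovaries read 1401, 969, 1226 and 1507, the Foxl2 KO ovaries 703, 1197, 1367 and 993, and the DKO ovaries 1093, 1298, 1206 and 1107. The order of the means was control, Foxl2 KO, DKO and Runx1 KO, and every group lay at least partly inside the control range. The Zfpm2 difference from the control was 0.30 ± 0.23 in the Runx1 KO (adjusted p = 0.816), 0.02 ± 0.23 in the Foxl2 KO and 0.20 ± 0.23 in the DKO. A second, dimmer probe set (r = 0.416) gave 0.33 ± 0.20, 0.37 ± 0.20 and 0.40 ± 0.20, none of them called.

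Zfpm1 encodes FOG1, the cofactor of GATA1 in red cell and platelet precursors. In the control it read 70.3, 87.8, 104 and 344, so a single ovary, replicate 4, set the group's mean of 152 ± 129 (SD, n = 4). The Runx1 KO ovaries read 93.4, 86.4, 91.8 and 183, the Foxl2 KO ovaries 99.9, 92.6, 86.8 and 67.1, and the DKO ovaries 121, 90.0, 50.7 and 75.4. With all arrays Zfpm1 had the lowest member differences, -0.46 ± 0.37 in the Foxl2 KO and -0.53 ± 0.37 in the DKO (adjusted p = 0.722 and 0.616). Without Control replicate 4 they were -0.01 and -0.08, and the Runx1 KO difference went from -0.17 to 0.28. That array also held the erythroid genes named above, and Gata1 read 1169 there against 160.4 to 299 in the other 15 ovaries. The erythroid list had 0 of 9 measured members called in each comparison with the control. The second Zfpm1 probe set did not follow the first (r = -0.04) and read 77.0 in Control replicate 4, so the high value there stood on 1 probe set only.

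Y-linked probe sets, whose genes are missing from XX ovaries, had group means of up to 5.48 on the log2 scale for Kdm5d, Eif2s3y and Uty and of 6.32 to 8.49 for 2 Sry probe sets. Zfy2 ran from 4.79 to 5.76 and Usp9y from 5.84 to 6.38. Above 6.79 the span rests on a single Sry probe set, at 8.02 to 8.49. The group means of the Zfpm1 probe set, 6.60 to 7.13, and of the Gata2 probe set, 7.95 to 8.07, lay within the span of such signals. So did the mean levels of Sox9, Dhh, Dmrt1, Vdr, Nr5a2 and Esr2, at 7.85, 7.47, 6.81, 7.04, 7.86 and 6.24, each called in some comparison. The Cbx2 group means, 8.31 to 8.50, lay at its upper end. This measure of background was chosen after the values were seen, and since probe sets differ in their background it does not show that any of these genes was silent.

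**Figure D2:**
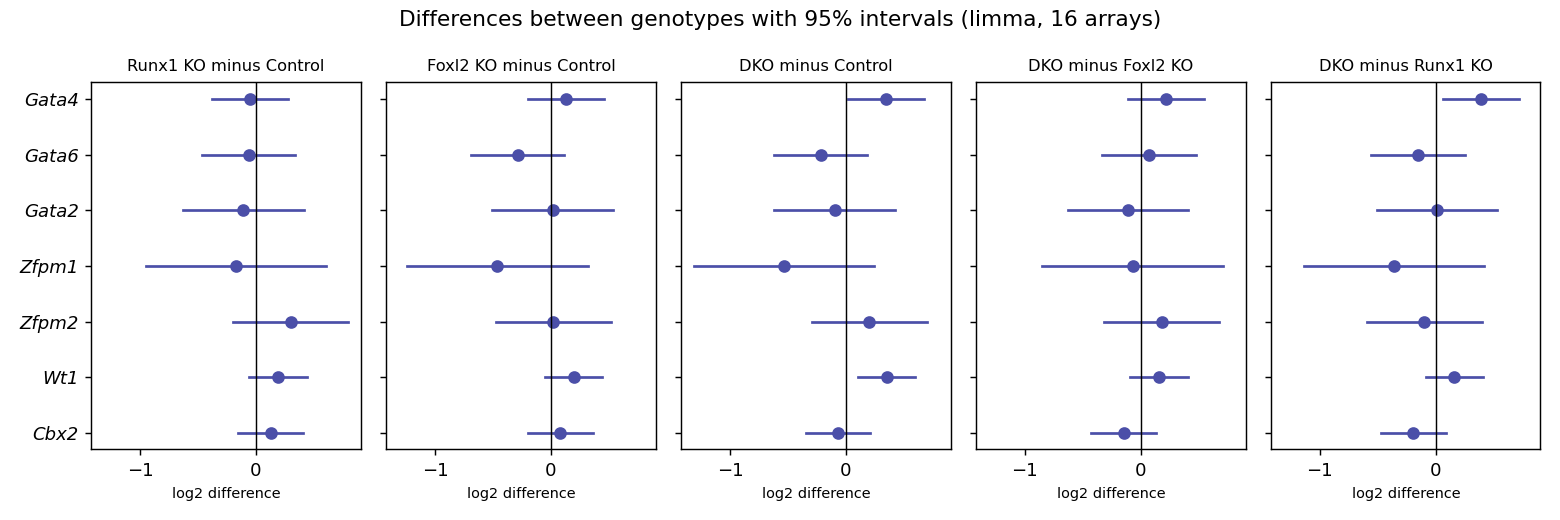
Log2 differences of the 7 regulators for each of 5 comparisons between genotypes, with 95% intervals from the limma fit to 16 arrays. The intervals exclude 0 for Gata4 and Wt1 in the DKO against the control and for Gata4 in the DKO against the Runx1 KO, and none of these passed adjustment over all genes.

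Wt1 had the smallest error of the 7 genes and rested on a single probe set. The control ovaries read 3879.8, 4425, 4545 and 4019. The Runx1 KO ovaries read 4866, 4711, 4280.5 and 5443, and the Foxl2 KO ovaries 4926, 4435, 4728 and 5228. Both single knockouts overlapped with the control, at means of 4825 and 4829 against 4217. The DKO ovaries read 6083, 5159, 4788 and 5548, all above the highest control ovary. Over the 7 members and 5 comparisons, only Wt1 in the DKO against the control had groups that did not overlap. Of all genes, 7.61% did not overlap between the DKO and the control. The DKO difference was 0.35 ± 0.12 (SE), with a 95% interval of 1.07 to 1.51-fold, an unadjusted p of 0.00845 and an adjusted p of 0.168. Over the alternatives its adjusted p ran from 0.0729 to 0.415, so it was not called under any of them. The single knockouts differed from the control by 0.19 ± 0.12 and 0.20 ± 0.12. The interaction, which is the effect of Runx1 loss in Foxl2-null ovaries less its effect in Foxl2 wild-type ovaries, was -0.04 ± 0.16 for Wt1 (adjusted p = 0.994), with a 95% interval of -0.39 to 0.31.

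Marker lists moved with Wt1. A list score is the mean over the list's genes of their log2 deviation from their own mean over the 16 arrays. The score of 12 Sertoli cell genes ran from -0.48 to -0.18 in the control and from 0.26 to 0.41 in the DKO. Of the 12, 6 rose and 1 fell in the DKO, where 2.13% of all genes were called. The score of 5 measured genes of mesonephric tubules ran from -0.72 to -0.22 in the control and from 0.13 to 0.50 in the DKO, and their summed intensity from 2432 to 3292 and from 3187 to 3793. Of these only Pax8, a paired-box factor of kidney tubules, was called. Emx2, the brightest of the 5, differed by -0.07 ± 0.13 in the DKO, while the other members had differences above 0. The part of either cell type in the Wt1 values was not tested.

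For Cbx2 the groups overlapped throughout. It read 323, 359.8, 307 and 281 in the control, 369, 321, 387 and 315 in the Runx1 KO, 360.4, 319, 290.0 and 381 in the Foxl2 KO, and 345, 314, 252 and 303 in the DKO. Its differences from the control were 0.13 ± 0.13, 0.08 ± 0.13 and -0.07 ± 0.13, with adjusted p values of 0.862, 0.875 and 0.895. The 95% interval for the DKO ran from 0.79 to 1.16 times the control. A second Cbx2 probe set (r = 0.432 with the first) varied more over the arrays, with an SD of 0.56 against 0.16 on the log2 scale. It gave 0.27 ± 0.39, -0.03 ± 0.39 and -0.12 ± 0.39, none called, so the sign in the Foxl2 KO was not the same on both. On the first, Cbx2 also had the largest interaction by size among the members, -0.27 ± 0.19, which was not called (adjusted p = 0.94).

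Counted together, 0 of 7 members were called in each comparison. Over all genes, 0.121% were called in the Runx1 KO against the control, 1.52% in the Foxl2 KO and 2.13% in the DKO. For the DKO against the Foxl2 KO the share was 0.0605%, against the Runx1 KO 0.989%, and for the interaction 0.0110%. At these shares a count of 0 among 7 genes says nothing particular about them, and the intervals are the more useful measure. Without adjustment, p was under 0.05 for 0, 0 and 2 members against the control in the Runx1 KO, the Foxl2 KO and the DKO, and for 7.34%, 11.0% and 12.4% of all genes. The shares of all genes whose groups did not overlap were 3.97% and 6.72% for the Runx1 KO and the Foxl2 KO against the control. They were 3.57% and 5.93% for the DKO against the Foxl2 KO and the Runx1 KO, with 0 members in each of these 4.

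The intervals show how large a change could have been missed on the chosen probe sets. They do not cover the other probe sets, such as the second of Cbx2 with an SE of 0.39. They also make no allowance for background signal. Against the control, all 7 intervals lay within a 2-fold change either way in the Runx1 KO, and 6 of 7 did so in the Foxl2 KO and in the DKO, Zfpm1 being the exception in both. These Zfpm1 intervals include Control replicate 4, and without it the differences were -0.01 and -0.08. Within 1.5-fold either way lay 4, 5 and 1 of the 7. The median member difference was -0.05, 0.02 and -0.07 in the Runx1 KO, the Foxl2 KO and the DKO, beside 0.04, 0.05 and 0.04 over all genes.

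The genes around these regulators did change in part. Of 16 listed partners and targets of WT1, 4 rose in the Foxl2 KO, 4 rose in the DKO and none was called in the Runx1 KO. The shares called over all genes were 1.52%, 2.13% and 0.121%. The list's median differences were 0.40, 0.49 and 0.14. Podxl, which encodes the surface sialomucin podocalyxin, read 3422 to 4613 in the control, 5942 to 6239 in the Foxl2 KO and 6366 to 8229 in the DKO, so neither knockout overlapped with the control. It rose by 0.65 ± 0.12 in the Foxl2 KO (adjusted p = 0.0124) and by 0.91 ± 0.12 in the DKO (adjusted p = 0.000577). Nr0b1, an orphan nuclear receptor of the gonad and the adrenal, rose by 1.93 ± 0.19 and 2.29 ± 0.19, and Sox9, the Sertoli cell factor, by 1.46 ± 0.16 and 1.41 ± 0.16. Vdr, the vitamin D receptor, rose by 1.48 ± 0.26 in the Foxl2 KO. It differed by -1.34 ± 0.26 in the Runx1 KO (adjusted p = 0.0718) and by 0.74 ± 0.26 in the DKO (adjusted p = 0.217), neither called. Without Control replicate 4 the counts were again 4 and 4, and the medians 0.30, 0.42 and 0.09.

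Nr5a1, which encodes SF1 and is counted among WT1 targets, early gonadal ridge regulators and Sertoli genes, separated the DKO from all other groups. It read 570.1 to 773 in the control, 858 to 1324 in the Runx1 KO, 762 to 903 in the Foxl2 KO and 1396 to 1824 in the DKO. It rose by 1.34 ± 0.15 in the DKO against the control (adjusted p = 8.63e-05) and by 0.96 ± 0.15 against the Foxl2 KO (adjusted p = 0.0215). Its level in the DKO was not called against the Runx1 KO, the other group with the transgene. The transgene is built on regulatory sequence of Nr5a1, and its part in this level cannot be told apart from loss of Runx1. Nr5a1 was the only 1 of 12 measured early gonadal ridge regulators that was called in any of these comparisons. Of all genes, 2.13% were called in the DKO against the control and 0.0605% against the Foxl2 KO.

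Of 19 measured genes known as GATA targets in gonads, 1 fell in the Runx1 KO, 3 rose and 1 fell in the Foxl2 KO, and 3 rose and 2 fell in the DKO. The shares called over all genes were 0.121%, 1.52% and 2.13%. The GATA target list moved both ways, with a DKO median of -0.01, or -0.07 without Control replicate 4. Hsd3b1, an enzyme of steroid synthesis, fell in all 3 knockouts, with log2 differences of -1.53 ± 0.20, -1.86 ± 0.20 and -2.19 ± 0.20. Fst, the activin antagonist of the ovary, fell by 2.67 ± 0.34 in the DKO. The genes that rose were Dhh, Dmrt1 and Sox9, all known from Sertoli cells, with Dhh at 2.30 ± 0.22 in the Foxl2 KO and 2.52 ± 0.22 in the DKO. These genes are also counted in the Sertoli list, and Sox9 in the WT1 list, so the counts of the lists are not separate changes. Of 13 measured pre-granulosa genes, among them the deleted Foxl2 and Runx1, 6 fell and 0 rose in the DKO, and 5 fell without Control replicate 4. Foxl2 itself was among the 6, an outcome fixed by the knockout, and 2.13% of all genes were called in the DKO. Nr5a2 fell the most, at -3.42 ± 0.25 (adjusted p = 1.91e-06), and Esr2 differed by -2.04 ± 0.28 (adjusted p = 0.000565). Fst, Kitl and Cdkn1b were the others. The DKO median of the 13 was -0.01, and -0.03 without that array, since other members had differences above 0. These included Wnt4 at 0.79 ± 0.21 (adjusted p = 0.0745) and Rspo1 at 0.52 ± 0.15 (adjusted p = 0.0911), both signals of the ovarian pathway and neither called.

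No call was made in the families nearest to the members. None of 7 further GATA-type factors and none of 13 measured Polycomb genes was called in any of the 6 comparisons, and their DKO medians were 0.11 and 0.02. At an unadjusted p under 0.05 in limma there were 0 and 1 of them in the DKO. The surface epithelium and mesothelium list, where Wt1 and Gata4 are also made, had 0 of 15 genes called in each knockout, with medians of 0.12, -0.15 and -0.06 in the Runx1 KO, the Foxl2 KO and the DKO. Without Control replicate 4 these medians were 0.05, -0.20 and -0.16, again with 0 genes called. With all arrays its unadjusted counts were 1, 1 and 4. None of 11 stroma, 11 endothelium, 8 macrophage or 14 oocyte genes was called against the control, and in the DKO 1, 0, 0 and 0 of them were under an unadjusted p of 0.05. Of 11 genes of megakaryocytes and mast cells only Cpa3, a mast cell protease, was called, lower in the DKO, and 0 were without Control replicate 4.

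The regulators varied together in pairs across the ovaries. The following correlations are descriptions over 16 arrays that share normalisation and genotype, and they include the 3 highest of 21 pairs. Gata4 and Wt1 had a Pearson r of 0.752 and a Spearman rho of 0.647, and r was 0.747 after each group's mean was removed and 0.683 without the 2 ovaries farthest from the Gata4 median. Gata6 and Zfpm2 had r = 0.698 and rho = 0.691, with 0.824 within groups and 0.778 without the 2 farthest ovaries. Gata4 and Gata6 had r = 0.08 over all ovaries but 0.416 within groups, and Gata4 and Zfpm2 had 0.21 and 0.29. Gata2 and Zfpm1 had r = 0.569, which was 0.349 without Control replicate 4.

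**Figure D3:**
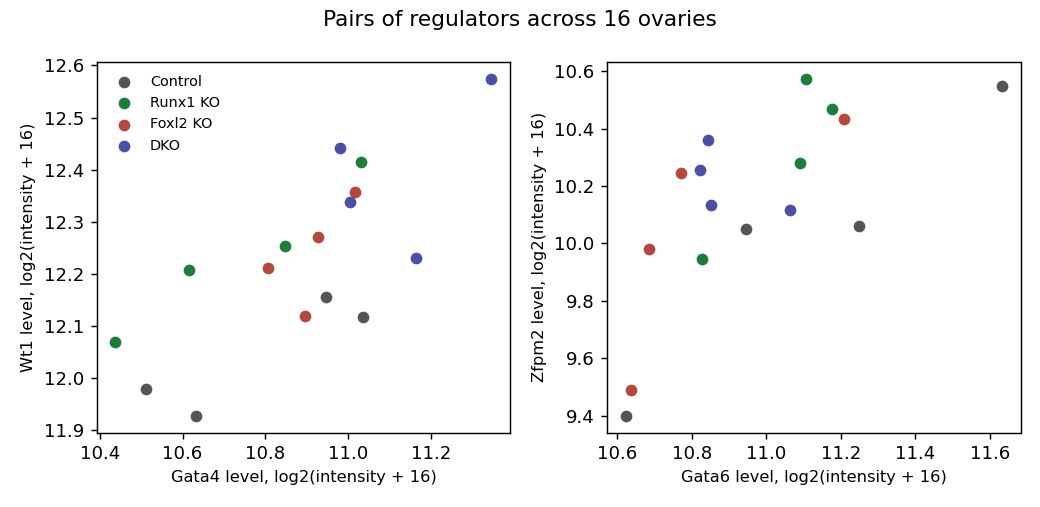
Log2 levels of Gata4 against Wt1 and of Gata6 against Zfpm2, 1 point for each of 16 ovaries, coloured by genotype. Both pairs rise together, with r of 0.752 and 0.698, and 0.747 and 0.824 after each genotype's mean was removed.

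Each member was also set beside the 10 marker lists, 70 relations in all, again as a description. Gata2 went with genes of megakaryocytes and mast cells (r = 0.811, rho = 0.7, within groups 0.896), and without the 2 ovaries farthest from the median score r was 0.562. Zfpm1 went with the erythroid list (r = 0.788), but rho was 0.0824 and r fell to 0.0482 without Control replicate 4, so the relation rests on that ovary. Wt1 went with the mesonephric list (r = 0.83, rho = 0.756, within groups 0.576, without the 2 farthest ovaries 0.746) and with the Sertoli list (r = 0.67, within groups 0.173). Zfpm2 went with stroma (r = 0.718, rho = 0.676, within groups 0.753) and Cbx2 with oocyte genes (r = 0.659, rho = 0.709, within groups 0.57). Gata6 went with pre-granulosa genes (r = 0.62, rho = 0.518, within groups 0.667), though r was 0.342 without the 2 farthest ovaries. For Gata4 the highest was the Sertoli list (r = 0.646, rho = 0.556, within groups 0.358).

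**Figure D4:**
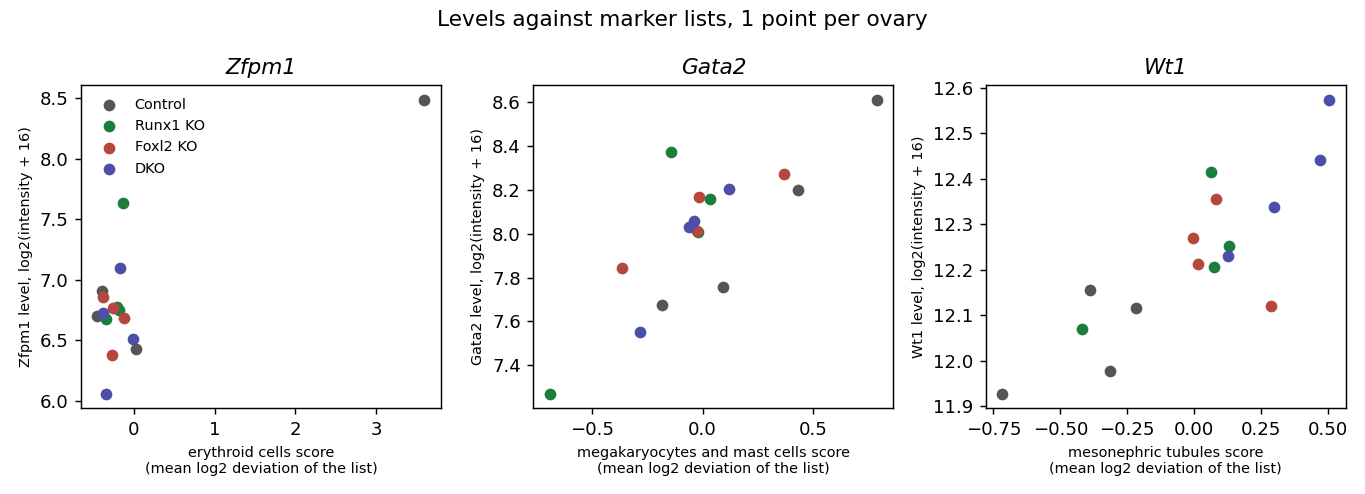
Log2 level of Zfpm1, Gata2 and Wt1 against the score of the marker list each followed most closely, 1 point for each of 16 ovaries. In the Zfpm1 panel 1 control ovary stands alone at a score of 3.60, whereas the Gata2 and Wt1 panels spread along the whole axis.

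The single genes whose levels were most like each member were taken from 11038 or 11039 genes with a mean log2 level above 7. For Gata4 they were Creb3l3 (r = 0.904), Tulp2 and Farp1, for Gata6 Chmp2b (r = 0.886), Tshz1 and Rnd3, and for Gata2 Zfp760 (r = 0.86), Cenpc1 and Steap3. For Zfpm1 they were Ptbp3 (r = 0.898), Eps15 and Cd300lf, and for Zfpm2 Timp2 (r = 0.889), Sidt2 and Bcl9. Wt1 was most like Peg3 (r = 0.876), Abat and Faah, and Cbx2 most like D6Ertd527e (r = 0.8), Etnk1 and Csrp2. These are the highest of many correlations over 16 ovaries and are given as descriptions.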

How the data were processed

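RNA of 16 ovaries was measured on Affymetrix Mouse Genome 430 2.0 arrays. The deposited values are linear intensities per probe set, which the authors made with Expression Console 1.2 and which have a trimmed mean of 500.0 on each array (2% off each end). The summarisation algorithm is not given in the sources used here, and the study's own tests used log2 values from another program. Array medians ran from 134 to 177, and the number of arrays limits the precision. No depth applies to arrays.

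Probe sets that matched 1 gene (34945) were kept, and 932 with several genes, 9160 with none and 64 control probe sets were left out. To each intensity 16 was added before log2. With limma 3.58.1 in R 4.3.3, lmFit and eBayes estimated 4 group means over the 16 arrays jointly, two-sided, with Benjamini-Hochberg adjustment over 18193 genes in each of 6 contrasts, and was tested on simulated data. The genes named were the 7 members, Runx1 and Foxl2, genes of the 15 lists, and the 3 genes most like each member. The plan for the lists was up to 3 called genes with the smallest p in each comparison. It was not kept throughout, since Podxl, Kitl and Cdkn1b ranked lower and Wnt4, Rspo1 and Emx2 were not called. Fgf9, a Sertoli gene called in the Runx1 KO, was within the plan and is not described above. Gata1 and marker genes used to check the tissue were added after their values were seen. The members and lists were chosen with earlier results of these data known. Replicate numbers were not used as a pairing in the main fit. Of 24 same-number pairs, 1 had a residual correlation above 0.1. Pairs with different numbers were not compared, so this does not show that the arrays were unpaired. Alternatives were other offsets, normalizations, probe set rules, variance models and tests, and leaving out each array. Figures were drawn with matplotlib.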

Additional observations from a re-analysis of the deposited data

Results flagged for a closer look

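Within the groups of 4 ovaries, 2 values lay far from the others of their group by Dixon's test, which divides the gap to the nearest value by the group's range and whose 95% critical value chance exceeds in about 1 in 20 groups. Gata6 in DKO replicate 1 read 2126 against 1796 to 1831 in the other 3 (ratio 0.885). Zfpm1 in Runx1 KO replicate 4 read 183 against 86.4 to 93.4 (ratio 0.899), while its second probe set read 71.4 there, within the range of the group. The Zfpm1 value of Control replicate 4, though farther out in intensity, had a ratio below that limit on the log2 scale. No difference between genotypes in the effect of a knockout passed the test for any of the 7 genes.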

How the results depend on the processing

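No member was called in any comparison under any of 30 alternatives, 16 of which left out an array. The count of 0 also stood with the replicate block and with every probe set on its own. Under an unmoderated analysis of variance with the study's rule, an unadjusted p under 0.05 and more than 1.5-fold, it was 0 too. That 0 was fixed by the fold limit and is no check, since no member difference reached 1.5-fold. The largest was 1.45-fold, for Zfpm1 in the DKO against the control. Of 1229 alternative values for the 42 member differences, 1172 kept their sign and 57 did not, all for 19 differences of at most 0.20 in size. The lowest adjusted p was 0.0729, for Wt1 in the DKO against the control with values under 16 set to 16, and with the replicate block it was 0.257. The Gata2 difference of the Foxl2 KO from the control became -0.062 with equal array medians and -0.029 with quantile normalization, that of Zfpm2 became -0.054 with equal array medians, and that of Gata2 in the DKO became 0.14 with the mean of all probe sets. Leaving out 1 array at a time moved the Runx1 KO difference from -0.15 to 0.050 for Gata4, -0.22 to 0.11 for Gata6, -0.25 to 0.12 for Gata2 and -0.41 to 0.28 for Zfpm1, the Foxl2 KO difference from -0.12 to 0.20 for Gata2 and -0.18 to 0.20 for Zfpm2, and the DKO difference from -0.23 to 0.086 for Gata2, -0.0040 to 0.38 for Zfpm2 and -0.13 to 0.014 for Cbx2. The cause was not tested. Wt1 and Gata2 have no value without probe sets shared between transcripts, since theirs are of that kind, and Gata2 and Zfpm1 have none with genes above the median level alone.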
